A study of Mus musculus with 6 samples.

Results

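The Cyp4 genes of mouse liver are the subject here: the fatty acid hydroxylases Cyp4a10, Cyp4a12a, Cyp4a12b, Cyp4a14, Cyp4a31, Cyp4a32, Cyp4b1, Cyp4f13, Cyp4f14 and Cyp4v3. These 10 genes were chosen by symbol from the 55802 gene symbols of the deposited count files, and each was found on 1 row in every library. All 10 passed the filter on low counts that left 17662 genes for testing. The data are 6 liver RNA-seq libraries of male C57BL/6 mice, a common inbred strain, kept for 71 weeks. The 3 control libraries came from mice on normal chow, and the 3 PS-MP libraries came from mice on chow that contained PS-MP, which are microplastic particles of polystyrene. Both diets shared strain, sex, tissue and age. The sources used here do not give the particle size, the dose or the length of feeding on the particles. The labels do not say that the replicates are separate animals, so p-values reflect only how far these samples spread, which may be technical. The question that the design addresses is what prolonged exposure to PS-MP in food does to gene expression in the liver.

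Enzymes of the Cyp4 family are cytochrome P450 proteins of the endoplasmic reticulum that add a hydroxyl group to the far (omega) end of a fatty acid, the first step of omega-oxidation. Alcohol and aldehyde dehydrogenases then turn the product into a dicarboxylic acid, which peroxisomes shorten. In mouse liver Cyp4a10 and Cyp4a14 are classical targets of PPARA, the nuclear receptor that senses fatty acids and fibrate drugs, whereas Cyp4a12a and Cyp4a12b are male-biased genes that depend on androgen and on the male pattern of growth hormone release.

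The Cyp4a copies are so alike in sequence that reads can be shared between them, and the sequences are shown because this bears on which values can be read gene by gene. They come from the GENCODE M21 annotation of the earlier build GRCm38, since no genome of the files' build GRCm39 was used here. The first set is a stretch of 90 coding bases around the codon of the cysteine that holds the haem iron, which spans exons 11 and 12. Capitals mark bases that differ from Cyp4a10.
Cyp4a10: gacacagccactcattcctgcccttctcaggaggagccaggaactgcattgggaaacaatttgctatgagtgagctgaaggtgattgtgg
Cyp4a14: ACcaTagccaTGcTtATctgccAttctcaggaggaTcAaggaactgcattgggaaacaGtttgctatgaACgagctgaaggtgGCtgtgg
Cyp4a12a: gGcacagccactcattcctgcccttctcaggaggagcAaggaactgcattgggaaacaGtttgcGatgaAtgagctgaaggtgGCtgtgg
The Cyp4a10 stretch lies on the plus strand within chr4:115529479-115532580, intron included, that of Cyp4a12a on the plus strand within chr4:115328963-115331883, and that of Cyp4a14 on the minus strand within chr4:115487262-115489828. Over these bases Cyp4a31 and Cyp4a32 were identical to Cyp4a10, and Cyp4a12b was identical to Cyp4a12a. Cyp4a12a differed from Cyp4a10 at 7 bases and Cyp4a14 at 16.

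Across the whole coding sequence Cyp4a12a and Cyp4a12b differed at 23 of 1524 aligned bases, an identity of 98.5%. Of all windows of 100 bases in Cyp4a12a, 41.3% were found unchanged in Cyp4a12b. Cyp4a10 shared 97.2% of its coding bases with Cyp4a32 (43 of 1527 different) and 96.6% with Cyp4a31 (52 of 1527 different), with 13.8% and 7.6% of its windows of 100 bases found unchanged in them. Cyp4a31 and Cyp4a32 were 96.0% identical to each other. Every remaining pair of the 10 genes was at most 80.0% identical, and Cyp4a14 shared no window of 50 bases with Cyp4a10 or Cyp4a12a. Of the stretches of 60 coding bases that lie within an exon, those where the copies differ most are shown. They hold bases that a read can use to tell the copies apart, and stretches across exon junctions were not searched. The first pair lies in exon 6, on the plus strand, at chr4:115326628-115326687 for Cyp4a12a and chr4:115432881-115432940 for Cyp4a12b, and capitals mark the 4 bases that differ.
Cyp4a12a: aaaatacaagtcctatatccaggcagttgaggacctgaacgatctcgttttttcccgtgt
Cyp4a12b: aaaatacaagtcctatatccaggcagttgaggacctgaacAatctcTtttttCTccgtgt
The second pair lies in exon 2, on the plus strand, at chr4:115519640-115519699 for Cyp4a10 and chr4:115602270-115602329 for Cyp4a32, with 9 bases that differ.
Cyp4a10: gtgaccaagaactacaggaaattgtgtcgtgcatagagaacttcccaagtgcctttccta
Cyp4a32: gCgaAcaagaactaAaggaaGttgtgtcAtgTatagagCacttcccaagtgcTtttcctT
How the submitters' counting treated reads that match 2 genes is not given in the sources used here, and single values of Cyp4a10, Cyp4a31 and Cyp4a32, and of Cyp4a12a and Cyp4a12b, are uncertain and are also given as sums below.

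On GRCm38 the 6 Cyp4a genes and Cyp4b1 lie in 1 cluster on chromosome 4, from 115299046, where Cyp4a12a starts, to 115647723, where Cyp4b1 ends. Cyp4f13 and Cyp4f14 are neighbours on chromosome 17 on the minus strand, at chr17:32924688-32947402 and chr17:32905070-32917342. Cyp4v3 lies alone on chromosome 8 on the minus strand, at chr8:45304944-45333216. One processed pseudogene, Gm12837, overlaps Cyp4a12b on the opposite strand. Cyp4v3 is overlapped on its own strand by Gm45753, which stood between 0 and 0.736 CPM, which are counts scaled to a common library total by the trimmed mean of M values (TMM).

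The libraries held 68357478 to 112566641 counts, of which the 10 Cyp4 genes took 0.483% to 0.772%. Hepatocyte markers summed to 69567 to 88528 CPM on control chow and 75816 to 97476 CPM with PS-MP over 10 genes, all tested. Reads of 18S ribosomal RNA (Rn18s-rs5) took 2.92%, 11.2% and 1.15% of control counts and 1.14%, 0.599% and 0.387% of PS-MP counts, so control replicate 2 stood apart. Of 10 macrophage markers, 7 had each PS-MP library above each control library, against 6.24% of all genes, and the sum of all 10 ran from 110 to 144 CPM on control chow and from 165 to 186 CPM with PS-MP. Erythroid markers summed to 264 to 506 CPM on control chow and 572 to 849 CPM with PS-MP. Of 7 erythroid genes tested, 2 had each PS-MP library above each control library. Neutrophil markers summed to 0.889 to 1.29 CPM on control chow and 1.70 to 5.199 CPM with PS-MP. Ly6g, Ngp, Camp, Ltf and Mpo were not tested, and of the 5 neutrophil genes tested 3 were separated in this way. The sums of adipocyte, endothelial, stellate and fibroblast, lymphocyte, cholangiocyte and mesothelial markers overlapped between the diets. Among their genes, 2 of 9 mesothelial genes tested had each PS-MP library above each control library. Of 7 adipocyte genes tested, 1 had each PS-MP library below each control library, against 4.99% of all genes. No tested gene of the other lists in this group was separated. The part of these cell types in the results that follow was not tested. In bulk liver fewer cells of a type and less RNA per cell cannot be told apart.

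Cyp4a14 and Cyp4a10 dominated the family. Per kilobase of coding sequence, averaged over all 6 libraries, Cyp4a14 stood at 2217 ± 333 CPM and Cyp4a10 at 1428 ± 286 CPM (SD, n = 6). The ranges of these genes touched (1733 to 2558 and 1014 to 1740 CPM per kilobase), but Cyp4a14 was above Cyp4a10 in every library, with a ratio of their CPM, not corrected for length, of 1.41 to 1.85. Next came Cyp4a12a at 210 ± 87.7 and Cyp4v3 at 208 ± 15.3 CPM per kilobase, whose ranges overlapped. Cyp4a12a was above Cyp4v3 in control replicates 1 and 3 and below it in the other 4 libraries. Cyp4a12b followed at 89.9 ± 25.9 CPM per kilobase, below Cyp4a12a in every library. Cyp4f13 (39.2 ± 4.66), Cyp4f14 (36.2 ± 7.22), Cyp4a32 (33.8 ± 26.4) and Cyp4a31 (22.7 ± 7.26 CPM per kilobase) were neighbours whose ranges overlapped. Cyp4b1 was lowest at 6.08 ± 1.90 CPM per kilobase, although Cyp4a32 was below it in control replicates 2 and 3. Dividing by transcript length instead changed only the order of Cyp4a32 and Cyp4f14.

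With the quasi-likelihood test of edgeR, adjusted over all genes tested, 0 of the 10 Cyp4 genes passed a threshold of 0.05, where 2 of 17662 genes, or 0.0113%, passed. DESeq2 called 187 of 17610 genes (1.06%) and limma-voom called 1 gene, and neither called a Cyp4 gene. At an unadjusted p under 0.05 there were 2 Cyp4 genes, Cyp4a12a and Cyp4a12b, against 5.38% of all genes. The same genes had each PS-MP library below each control library, a pattern seen in 4.99% of all genes. No Cyp4 gene was higher in every PS-MP library, against 6.24% of all genes. The median log2 fold change (PS-MP minus control) was -0.03 over the 10 genes and 0.02 over all genes tested. Of the 10 values 7 were below zero, as were 8341 of the 17662 over all genes.

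**Figure D1:**
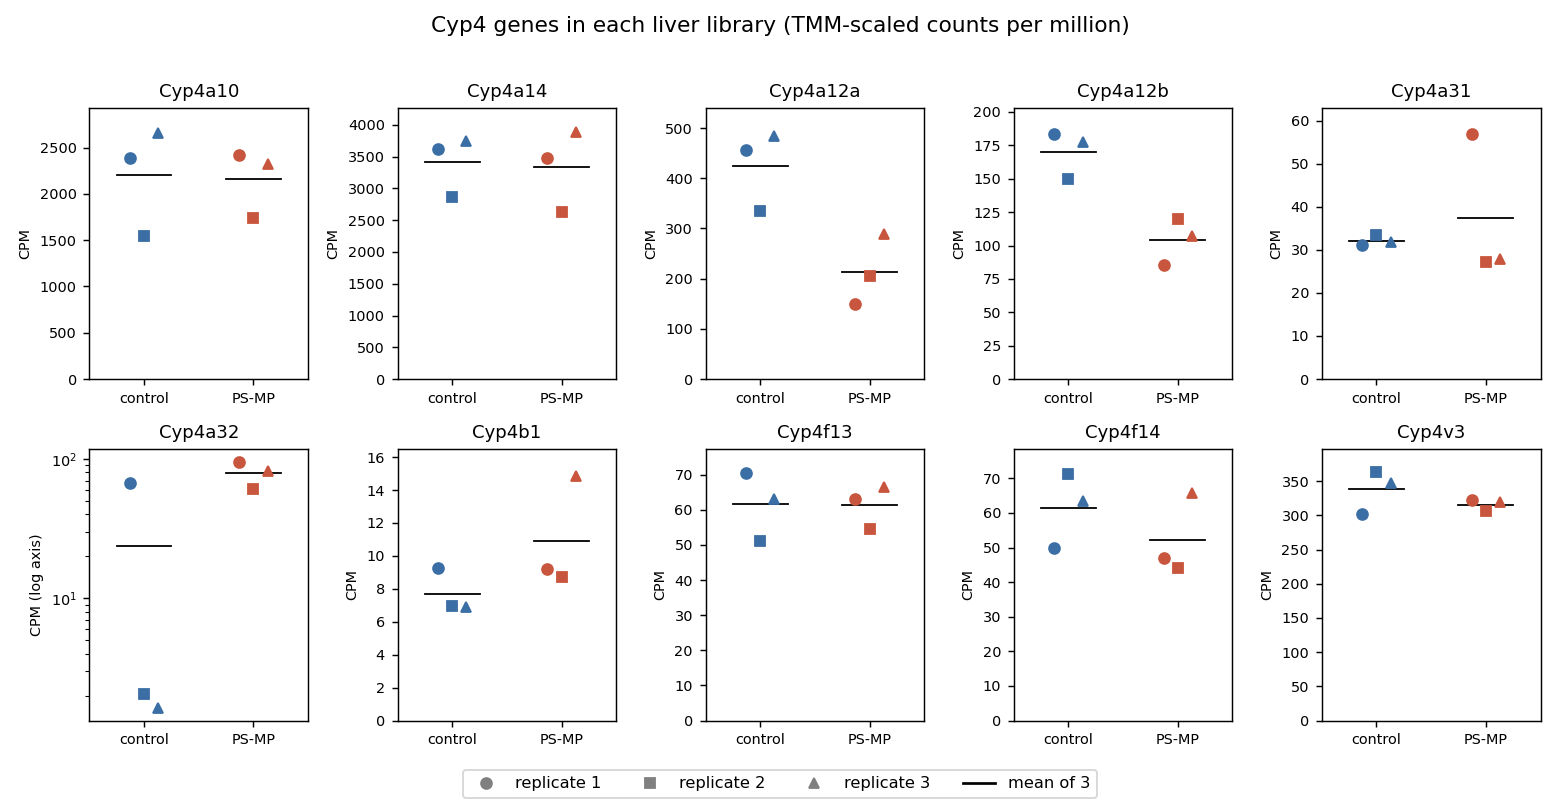
TMM-scaled CPM of each Cyp4 gene (vertical axis, linear from 0 except for Cyp4a32, which has a log axis) in 3 control (blue) and 3 PS-MP (red) libraries, with marker shape for the replicate number and a bar for the mean of 3. The diets do not overlap for Cyp4a12a and Cyp4a12b, and the control points of Cyp4a32 spread from 1.64 to 67.6 CPM.

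Cyp4a10 showed no difference between the diets that stood out from the spread. It measured 2392, 1548 and 2657 CPM in control replicates 1, 2 and 3 and 2424, 1735 and 2326 CPM in PS-MP replicates 1, 2 and 3. The lowest value of each diet was in its replicate 2, and the 3 PS-MP values lay inside the control range. The means were 2199 ± 579 CPM on control chow and 2162 ± 373 CPM with PS-MP (SD, n = 3 each), or -0.02 as log2 fold change (SE 0.25, 95% interval -0.62 to 0.57, edgeR adjusted p = 0.9998). On the linear scale the interval runs from 0.651-fold to 1.48-fold.

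Cyp4a14, the other PPARA target, had 3626, 2860 and 3745 CPM on control chow and 3479, 2637 and 3891 CPM with PS-MP. Its replicate 2 was again the lowest library of each diet, and the diets overlapped. Control averaged 3410 ± 480 CPM and PS-MP 3335 ± 639 CPM (SD, n = 3 each), or -0.03 as log2 fold change (SE 0.21, 95% interval -0.52 to 0.46). Control replicate 2, low for both genes, was the library with most 18S ribosomal RNA, while PS-MP replicate 2 had 0.599% of it. Without control replicate 2 the log2 fold changes were -0.23 for Cyp4a10 and -0.15 for Cyp4a14, neither past the threshold (edgeR adjusted p = 0.730 and 0.836). The signs of both small values turn when scaling is by library size alone, which gives 0.17 for each and moves the median of all genes to 0.23.

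A change of 2-fold in either direction lay outside the whole 95% interval for 6 of the 10 genes, Cyp4a10 and Cyp4a14 among them. The same was true of 53.6% of all genes tested. The others of the 6 were Cyp4a31, Cyp4f13, Cyp4f14 and Cyp4v3.

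Cyp4a12a, the main male-biased Cyp4a enzyme and a known maker of hydroxyeicosatetraenoic acids from arachidonic acid, was at 0.504 of its control level in PS-MP by the fit, but did not pass the threshold over all genes. It measured 457, 334 and 484 CPM on control chow and 149, 204 and 289 CPM with PS-MP. Every PS-MP library lay below every control library, and PS-MP replicate 1 was the lowest. The means were 425 ± 79.8 and 214 ± 70.5 CPM (SD, n = 3 each), and the 95% interval of the fitted ratio was 0.321 to 0.792. The log2 fold change of -0.99 (SE 0.27, 95% interval -1.64 to -0.34) had an unadjusted p = 0.00925 (edgeR adjusted p = 0.805).

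Cyp4a12b, its near-identical copy, had 183, 150 and 177 CPM on control chow and 85.5, 120 and 107 CPM with PS-MP. PS-MP replicate 1 was again the lowest of the 6 libraries and the diets did not overlap. Control averaged 170 ± 17.7 CPM and PS-MP 104 ± 17.2 CPM (SD, n = 3 each), a fitted ratio of 0.611-fold (95% interval 0.466 to 0.802). The log2 fold change was -0.71 (SE 0.16, 95% interval -1.10 to -0.32, unadjusted p = 0.00390, edgeR adjusted p = 0.767). With DESeq2 the adjusted p was 0.0501 for Cyp4a12b and 0.124 for Cyp4a12a, short of the threshold.

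Because the pair can share reads, its members are not independent of each other. Their sum was 640, 484 and 661 CPM on control chow and 235, 324 and 396 CPM with PS-MP, without overlap. Fitted as 1 gene, the pair had a log2 fold change of -0.90 (unadjusted p = 0.00637, edgeR adjusted p = 0.766). Cyp4a12b took 28.6%, 31% and 26.8% of the sum on control chow and 36.4%, 36.9% and 27.0% with PS-MP. PS-MP replicates 1 and 2 were above every control library, and PS-MP replicate 3 lay inside the control range. Over 15 alternative fits of the separate genes the log2 fold change ran from -1.28 to -0.78 for Cyp4a12a and from -0.82 to -0.50 for Cyp4a12b, with adjusted p of at least 0.124 and 0.0501. Without control replicate 2, the library rich in ribosomal RNA, they were -1.14 and -0.80.

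**Figure D2:**
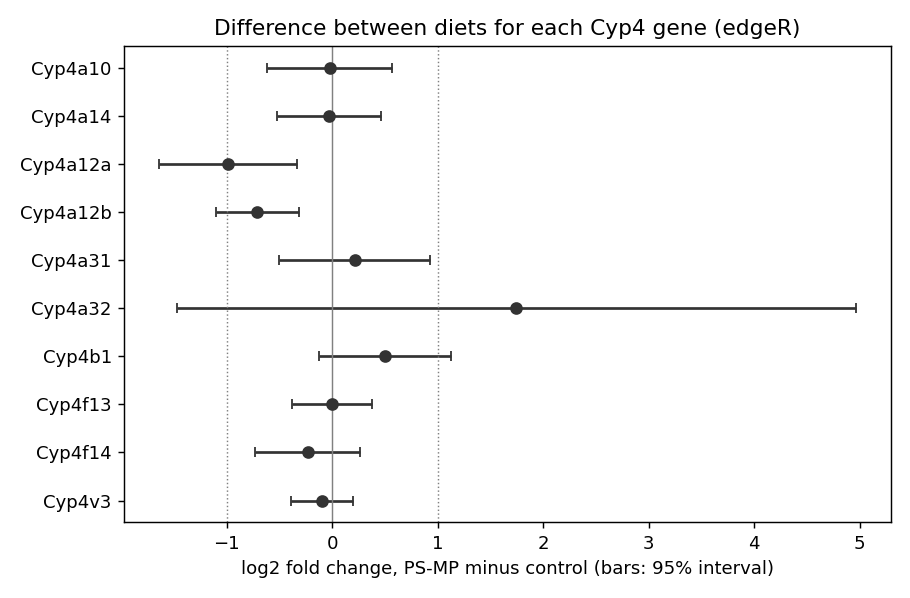
Log2 fold change of each Cyp4 gene, PS-MP minus control (horizontal axis), from the edgeR fit, with bars for the 95% interval and dotted lines at -1 and 1. The intervals of Cyp4a12a (-1.64 to -0.34) and Cyp4a12b (-1.10 to -0.32) lie below zero before adjustment over all genes, and that of Cyp4a32 (-1.47 to 4.96) is the widest.

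Both classes of Cyp4a gene were set against each other within each library, as the mean log2 CPM of Cyp4a10 and Cyp4a14 minus that of Cyp4a12a and Cyp4a12b. The PPARA-responsive pair stood at 11.52, 11.04 and 11.62 on control chow and at 11.50, 11.06 and 11.55 with PS-MP. The male-biased pair stood at 8.18, 7.81 and 8.19 on control chow and at 6.82, 7.29 and 7.46 with PS-MP. The diets thus overlapped for the first pair and not for the second.

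The gap between the pairs was 3.35, 3.23 and 3.43 on control chow and 4.68, 3.77 and 4.10 with PS-MP on the log2 scale. Control libraries lay close together (3.34 ± 0.0989, SD, n = 3), whereas PS-MP libraries were wider apart (4.19 ± 0.462, SD, n = 3) and all lay above control. The diets differed by 0.85, with a difference between diets of -0.87 for the male-biased pair and -0.02 for the PPARA-responsive pair. No p is given, since the genes were chosen with earlier results of these data known. Other scalings and filters cancel within a library and cannot move this gap. With each library left out in turn the difference ran from 0.60, without PS-MP replicate 1, to 1.06, without PS-MP replicate 2, and it was 0.80 without control replicate 2. With the near-identical copies summed it was 0.92. Cyp4a10 and Cyp4a14 made up 83.7%, 81.3% and 84.5% of the counts of the 10 genes on control chow and 87.7%, 84.1% and 86.5% with PS-MP, which overlap.

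**Figure D3:**
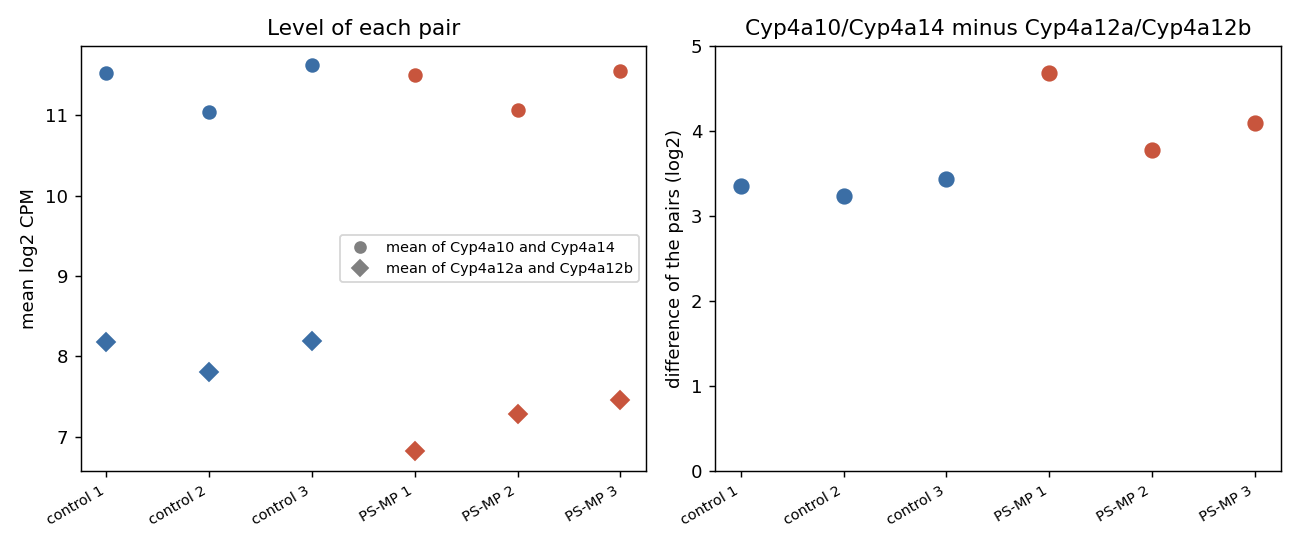
Left, mean log2 CPM of Cyp4a10 with Cyp4a14 (circles) and of Cyp4a12a with Cyp4a12b (diamonds) in each control (blue) and PS-MP (red) library. Right, the difference between the pairs, which lies between 3.23 and 3.43 on control chow and between 3.77 and 4.68 with PS-MP.

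Cyp4a31 and Cyp4a32 are close copies of Cyp4a10. Cyp4a31 measured 31.1, 33.4 and 31.9 CPM on control chow and 56.8, 27.2 and 27.9 CPM with PS-MP. PS-MP replicate 1 was the one high library, and the log2 fold change of 0.21 (SE 0.30, 95% interval -0.50 to 0.93) became -0.22 without it.

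Cyp4a32 had the widest spread of the family. It measured 67.6, 2.05 and 1.64 CPM in control, from 4910, 125 and 173 counts, and 95.6, 61.4 and 81.8 CPM with PS-MP, from 7876, 5417 and 7002 counts. Control replicate 1 was as high as the PS-MP libraries, and the other control libraries were low. The highest control value was 41.4 times the lowest, and a span over 16-fold within control was seen in 1 of the 10 genes and in 3.84% of all genes. The log2 fold change was 1.74 (SE 1.35, 95% interval -1.47 to 4.96). It was 3.74 with limma-voom and 3.92 with the replicate number as a block (adjusted p = 0.810 and 0.868). Without control replicate 1 it was 5.44 and passed the threshold (edgeR adjusted p = 0.0354), where 2 of 18445 genes passed. Leaving out this library takes away the only overlap between the diets, so nothing is read from that call.

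The sum over the copies could hardly follow Cyp4a32, which took at most 3.71% of it. Cyp4a10, Cyp4a31 and Cyp4a32 summed to 2491, 1584 and 2691 CPM on control chow and 2576, 1824 and 2436 CPM with PS-MP. Cyp4a32 took 2.71%, 0.130% and 0.0608% of this sum on control chow and 3.71%, 3.36% and 3.36% with PS-MP. Cyp4a31 took 1.14% to 2.21% in all 6 libraries. Fitted as 1 gene, the 3 copies had a log2 fold change of 0.02.

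**Figure D4:**
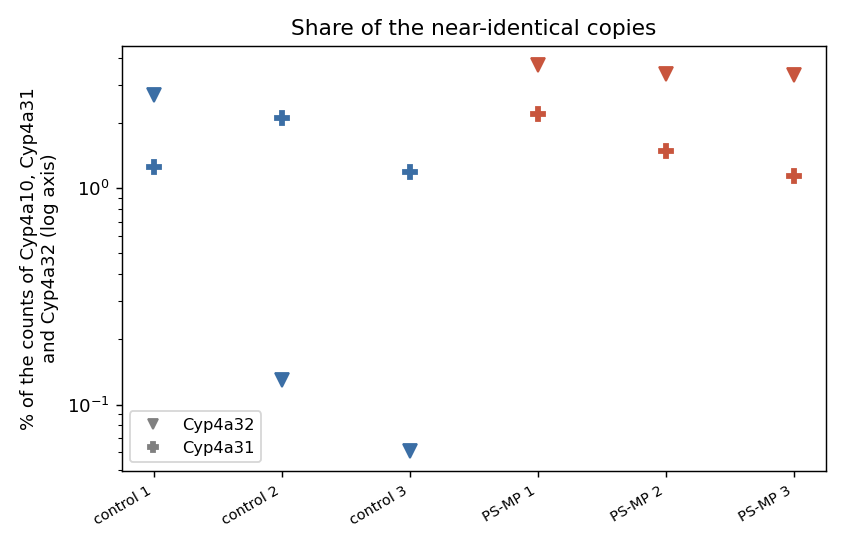
Share of the summed counts of Cyp4a10, Cyp4a31 and Cyp4a32 taken by Cyp4a32 (triangles) and Cyp4a31 (crosses) in each control (blue) and PS-MP (red) library, in percent on a log axis. Cyp4a32 is at 0.130% and 0.0608% in control replicates 2 and 3 and between 2.71% and 3.71% in the other 4 libraries.

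None of the 4 genes outside the Cyp4a subfamily passed the threshold, and the diets overlapped for each of them. Cyp4f13 measured 70.5, 51.1 and 63.0 CPM on control chow and 63.1, 54.6 and 66.6 CPM with PS-MP, which is -0.0026 as log2 fold change (SE 0.16, 95% interval -0.38 to 0.38). Cyp4f14, which hydroxylates leukotrienes, measured 49.7, 71.2 and 63.6 CPM on control chow and 47.1, 44.0 and 65.8 CPM with PS-MP. PS-MP replicates 1 and 2 were its lowest libraries, but PS-MP replicate 3 lay inside the control range, and the log2 fold change was -0.23 (SE 0.21, 95% interval -0.74 to 0.27).

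Cyp4v3, the mouse counterpart of the human gene mutated in Bietti crystalline dystrophy of the retina, was the steadiest member. It measured 303, 364 and 347 CPM on control chow and 323, 306 and 319 CPM with PS-MP, and its highest library was 1.203 times its lowest. Its log2 fold change was -0.10 (SE 0.12, 95% interval -0.39 to 0.20). Cyp4b1, an enzyme better known from the lung, measured 9.30, 6.98 and 6.87 CPM on control chow and 9.20, 8.70 and 14.9 CPM with PS-MP. PS-MP replicate 3 was its one high library, and the log2 fold change was 0.50 (SE 0.26, 95% interval -0.13 to 1.13, edgeR adjusted p = 0.942).

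Of 10 further mouse Cyp4 genes, 5 passed the filter. Cyp4f15 was the one of some abundance, with 121, 99.0 and 104 CPM on control chow and 115, 92.2 and 126 CPM with PS-MP (log2 fold change 0.04, SE 0.16). Cyp4f16, Cyp4f17, Cyp4f18 and Cyp4f39 stayed under 4 CPM in every library, and their log2 fold changes were 0.61, -0.50, 0.23 and -0.51, none past the threshold. Of the 5, Cyp4f16 alone had no overlap between the diets, at 0.542 to 0.992 CPM on control chow and 1.12 to 1.42 CPM with PS-MP, a separation upward that 6.24% of all genes had. Cyp4a29, Cyp4a30b, Cyp4f40 and Cyp4x1 had 0 counts in all libraries, and Cyp4f37 had 4 counts in all.

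Genes with the most similar course over the 6 libraries were sought among 7173 genes of mean log2 CPM of at least 3, by the root mean square (RMS) difference of log2 CPM after centring each gene on its mean. For Cyp4a10 they were Slc6a12 (RMS 0.0529), Alkbh7 (0.0698), Pgls (0.0724), Isoc2b (0.0750) and Rnpepl1 (0.0768). For Cyp4a14 they were Ybx3 (RMS 0.0526), Aspdh (0.0562), Tpgs1 (0.0601), Gm20632 (0.0602) and Tcta (0.0608). None of these 10 is in the list of PPARA targets, which holds 35 genes. Among 7173 candidates so short a list would rarely meet 10 places, so nothing is read from this. For Cyp4a12a they were Elovl5 (RMS 0.141), Tsc22d1 (0.169), Scd1 (0.182), Pex11a (0.186) and Paqr7 (0.204). Its nearest genes were farther away than those of Cyp4a10 or Cyp4a14, but this distance is not scaled for how much a gene varies. Cyp4a12a spanned 3.24-fold over the libraries, against 1.72-fold for Cyp4a10 and 1.48-fold for Cyp4a14. The distances therefore do not show how unusual its course is. Elovl5 and Scd1 encode an elongase and a desaturase of fatty acids, and Pex11a, which is in the list of PPARA targets, a protein of peroxisome division.

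Partners of the Cyp4 enzymes, their regulators, and zonated and clock genes were examined next, through lists that were chosen with earlier results known. In all, 11 lists, with the further Cyp4 genes as a list among them, held 186 genes, of which 173 were tested. With edgeR 0 of the 173 passed, and 13 were below 0.05 before adjustment, against 5.38% of all genes. DESeq2 called 2, Cux2 and Creb3l3, which is near the 1.06% that it called of all genes, and limma-voom called 0.

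Of 16 partners of omega-oxidation, 11 had a value below zero, with a median log2 fold change of -0.20 against 0.02 over all genes. Aldh3a2, the fatty aldehyde dehydrogenase that acts after the Cyp4 step, had 779, 651 and 889 CPM on control chow and 416, 650 and 661 CPM with PS-MP (log2 fold change -0.43, SE 0.22). The diets overlapped, with PS-MP replicate 1 lowest. Hsd17b4, the D-bifunctional protein that shortens dicarboxylic acids in peroxisomes, had 541, 470 and 558 CPM on control chow and 357, 397 and 445 CPM with PS-MP, without overlap (log2 fold change -0.39, SE 0.14, edgeR adjusted p = 0.902). Acot4, a peroxisomal thioesterase for dicarboxylic acyl-CoAs that is also in the list of PPARA targets, had no overlap in the other direction, with 118, 119 and 124 CPM on control chow and 133, 165 and 140 CPM with PS-MP (log2 fold change 0.28, SE 0.12, edgeR adjusted p = 0.923). Por, which hands electrons to all microsomal P450 enzymes, varied from 93.9 to 404 CPM within control and from 89.7 to 331 CPM within PS-MP.

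Other PPARA targets mostly had values below zero, and none passed the threshold with edgeR. Of 35 tested, 30 had a value below zero, with a median log2 fold change of -0.34. Ehhadh, the bifunctional enzyme of peroxisomal beta-oxidation, had 612, 463 and 707 CPM on control chow and 341, 361 and 563 CPM with PS-MP (log2 fold change -0.50, SE 0.25). The diets overlapped, since PS-MP replicate 3 lay inside the control range. The log2 fold changes of Fabp1 and Vnn1 were -0.44 and -0.51. Acot3, an acyl-CoA thioesterase, went the other way, with 55.7, 50.8 and 74.5 CPM on control chow and 126, 156 and 69.9 CPM with PS-MP (log2 fold change 0.96, edgeR adjusted p = 0.831).

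Creb3l3, a liver transcription factor of lipid metabolism that works with PPARA, had 289, 12.4 and 293 CPM on control chow and 9.07, 8.82 and 9.90 CPM with PS-MP. Control replicate 2 was near the PS-MP level, and the others of control were far above it. Its log2 fold change was -4.42 (SE 1.06, edgeR adjusted p = 0.767), and it was called by DESeq2 and, with edgeR, without control replicate 2, where it was -4.98 (adjusted p = 0.00102). Ppara itself had 73.9, 149 and 197 CPM on control chow and 164, 207 and 143 CPM with PS-MP, which overlap. Counted by library, 5, 26 and 8 of the 35 targets were below their own mean in control replicates 1, 2 and 3, and 31, 29 and 10 in PS-MP replicates 1, 2 and 3. Control replicate 2 and PS-MP replicates 1 and 2 were thus the low libraries for these genes. Cyp4a10 and Cyp4a14 were low in control replicate 2 and PS-MP replicate 2 but not in PS-MP replicate 1.

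Male-biased liver genes, the class to which Cyp4a12a and Cyp4a12b belong, mostly had values below zero, but each of those tested overlapped between the diets. Of 18 tested, 15 had a value below zero, against 8341 of all 17662 genes, with a median log2 fold change of -0.40. With edgeR 0 passed the threshold and 0 had an unadjusted p under 0.05, against 0.0113% and 5.38% of all genes. In every PS-MP library 0 were lower, against 4.99% of all genes, and 0 of 18 is near these shares. Neither limma-voom nor DESeq2 called one. By library, 8, 1 and 8 of the 18 were below their own mean on control chow and 15, 11 and 6 with PS-MP. PS-MP replicate 3 was above the mean in 12 of them, whereas its Cyp4a12a and Cyp4a12b were below every control library. Elovl3, a fatty acid elongase, had 583, 409 and 224 CPM on control chow and 83.4, 63.5 and 585 CPM with PS-MP. Cyp7b1, an oxysterol hydroxylase, had 121, 155 and 110 CPM on control chow and 34.2, 93.3 and 145 CPM with PS-MP. Hsd3b5, a strongly male-biased gene in young mice, stood between 0.0453 and 1.002 CPM.

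**Figure D5:**
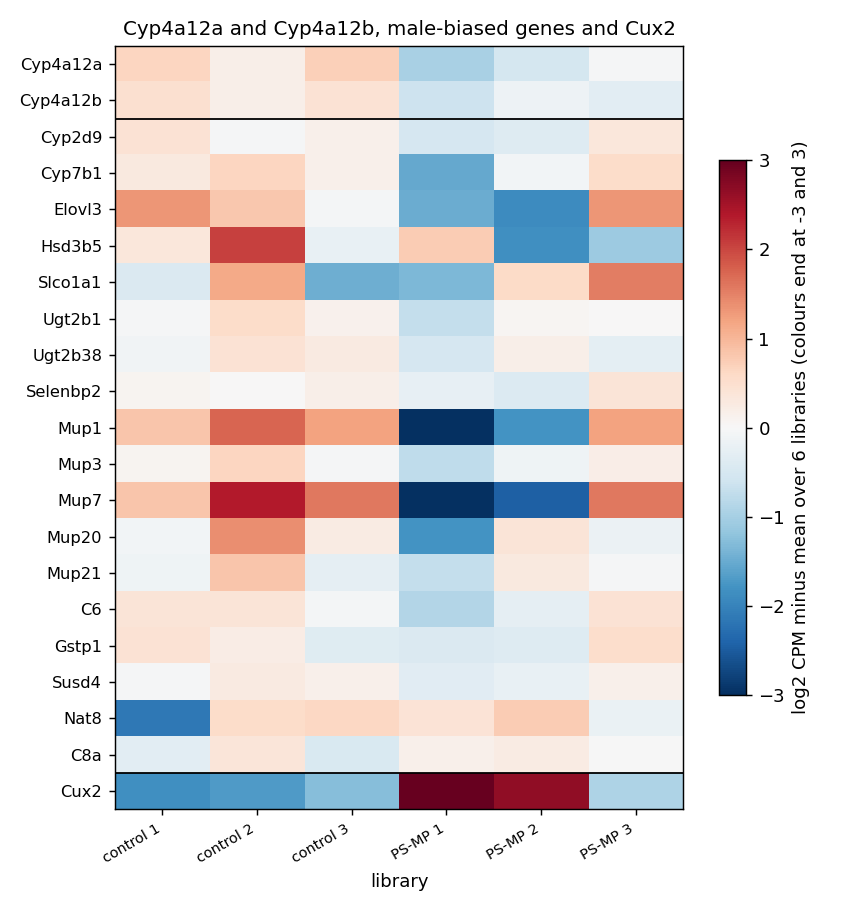
Log2 CPM minus the mean over 6 libraries (colour, ending at -3 and 3) for Cyp4a12a and Cyp4a12b, 18 male-biased genes and Cux2, by library. Most male-biased genes are below their mean in PS-MP replicate 1 (15 of 18) and fewer in PS-MP replicate 3 (6 of 18), where both Cyp4a12 genes remain below every control library.

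Genes of growth hormone signalling gave mixed values. Of 18 tested, 6 were below and 12 above zero, with a median log2 fold change of 0.05. Cux2, a female-biased repressor of male-biased liver genes, had 0.193, 0.214 and 0.293 CPM on control chow and 6.56, 4.87 and 0.385 CPM with PS-MP. It was high in PS-MP replicates 1 and 2, the libraries with the lowest Cyp4a12a, and near control in PS-MP replicate 3. Cyp4a12b did not have this order, since its lowest libraries were PS-MP replicates 1 and 3. Whether the levels of Cux2 and these genes are related was not tested. Its log2 fold change was 4.06 (SE 0.98, edgeR adjusted p = 0.767, DESeq2 adjusted p = 0.000739). Stat5a and Socs2, a transcription factor and a feedback inhibitor of the receptor, had log2 fold changes of -0.64 and 0.72 (edgeR adjusted p = 0.890 and 0.904). The receptor gene Ghr had 222, 366 and 305 CPM on control chow and 287, 323 and 266 CPM with PS-MP, and Igf1, the main hepatic product of growth hormone action, had 258, 459 and 385 CPM and 369, 461 and 326 CPM, so both overlapped.

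Female-biased genes were split evenly, with 7 of 14 tested below zero and a median log2 fold change of -0.03. Cyp2b9, a female-biased P450 gene, had 79.0, 15.6 and 123 CPM on control chow and 219, 106 and 34.8 CPM with PS-MP, which overlap. Other genes of eicosanoid metabolism and signalling, enzymes and a receptor among them, had 11 of 13 tested values below zero and a median of -0.22. Ephx1, an epoxide hydrolase, had 656, 532 and 700 CPM on control chow and 440, 433 and 523 CPM with PS-MP, without overlap (log2 fold change -0.44, SE 0.16, edgeR adjusted p = 0.902). Ltb4r1, a leukotriene receptor at low level, had no overlap in the other direction, with 0.454, 0.246 and 0.473 CPM on control chow and 0.595, 0.510 and 0.712 CPM with PS-MP (log2 fold change 0.62, SE 0.35).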

How the data were processed

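Liver RNA of 3 control and 3 PS-MP libraries was sequenced after selection of polyadenylated RNA and directional library preparation, per the labels' protocols. The deposited files hold the authors' raw read counts per gene, whole numbers that were not normalized, and bcl2fastq and the build GRCm39 are named, per the submitters' processing notes. Aligner, counter, annotation and strand setting were not given in the sources used here, and reads from opposite strands therefore cannot be told apart where genes overlap. The deposited table of the whole series held the same counts and was not used further. Groups were taken from the sample titles.

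Each file lists 56674 rows under 55802 symbols, and the counts of the 67 repeated symbols were summed. In R 4.3.3, edgeR 4.0.16 removed low genes with filterByExpr by diet, scaled the counts by TMM and compared the diets with its quasi-likelihood F test, with diet as the only term and Benjamini-Hochberg adjustment over 17662 genes. Intervals at 95% use 6.63 moderated degrees of freedom. Log2 CPM has a prior count of 2. Totals were 68357478 to 112566641 counts, and a Cyp4 gene had 125 to 396135 counts in a library. Alternatives were other scalings and filters, DESeq2 1.42.0, limma-voom (limma 3.58.1), the replicate number as a block, removal of ribosomal and mitochondrially encoded RNA, near-identical copies summed, and each library left out in turn. Coding sequences of GRCm38 were aligned with Biopython 1.88.

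The members and the gene lists were chosen with earlier results of these data known. Named genes were all 10 members, other Cyp4 genes past the filter, a set of regulators and targets named whatever their values, up to 3 genes of smallest p in each direction of a list, and the 5 genes most like Cyp4a10, Cyp4a14 and Cyp4a12a. Not every gene the rule gives is reported here, and genes named outside it were chosen with their values in view.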

Additional observations from a re-analysis of the deposited data

How the results depend on the processing

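Genes called numbered 2 in edgeR, 187 with DESeq2, 1 with limma-voom, 0 with a replicate block, and 0 to 4 with a library left out. Cyp4 genes called numbered 0, and 0 to 1 with a library left out, where the 1 is Cyp4a32 without control replicate 1, its only high control library. Of the genes in the 11 lists, edgeR called 0 and DESeq2 called 2 (Cux2 and Creb3l3), where DESeq2 called 1.06% of all genes. With a library left out the number was 0 to 1. The replicate block gave log2 fold changes of -1.02 for Cyp4a12a and -0.72 for Cyp4a12b. Deviations of libraries with the same number correlated across genes at 0.108, 0.139 and -0.128, so the numbers were not taken to pair the samples.

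Cyp4a12a, Cyp4a12b, Cyp4b1 and Cyp4f14 kept their sign in all 16 alternatives, 1 of which fits near-identical copies as a sum. Cyp4a32 kept its sign wherever it was fitted as a separate gene. In the summed fit the value of 0.02 belongs to Cyp4a10, Cyp4a31 and Cyp4a32 together and cannot show the sign of Cyp4a32. The size for Cyp4a32 did not hold: it was 1.74 in edgeR, 3.74 with limma-voom, 3.92 with the replicate block and 1.19 to 5.44 with a library left out. Values near zero did not: Cyp4f13 was 0.021 with upper quartile scaling, 0.20 with library size alone, 0.000275 with no filter, 0.015 with a filter at 1 CPM in 3 libraries, 0.0022 with limma-voom, 0.0052 with the replicate block and 0.0028 without ribosomal and mitochondrially encoded RNA. Scaling by library size alone also gave 0.17 for Cyp4a10, 0.17 for Cyp4a14 and 0.12 for Cyp4v3, with the median of all genes at 0.23, and Cyp4a10 was 0.02 with its copies summed. With a library left out the ranges were -0.23 to 0.14 for Cyp4a10, -0.17 to 0.11 for Cyp4a14, -0.12 to 0.11 for Cyp4f13, -0.22 to 0.39 for Cyp4a31, -0.071 to 0.16 for Cyp4f15, -0.20 to 0.45 for Cyp4f18, -0.046 to 1.35 for Cyp2b9 and -0.013 to 0.62 for Ppara. The causes of these changes were not tested.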

Other observations

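The lists of zonated and clock genes are among the 11 lists counted together above, and their values are given here. Of 12 pericentral genes, which are expressed around the central vein, 11 had a log2 fold change below zero (median -0.26). Glul, glutamine synthetase of the cells next to the vein, had 947, 655 and 1076 CPM on control chow and 560, 600 and 622 CPM with PS-MP, without overlap (log2 fold change -0.59, edgeR adjusted p = 0.869). Of 12 periportal genes 9 were above zero (median 0.16). Of 19 circadian clock genes 14 were above zero, with a median of 0.46. Per2, a repressor of the clock, had 3.91, 3.27 and 5.80 CPM on control chow and 11.5, 21.2 and 3.62 CPM with PS-MP (log2 fold change 1.48, edgeR adjusted p = 0.921). It was high in PS-MP replicates 1 and 2 and within the control range in PS-MP replicate 3. Its log2 fold change was 0.80 with PS-MP replicate 2 left out. Other clock genes divided the libraries differently: Dbp, a clock output gene chosen after its values were seen, had 2.01, 2.23 and 44.3 CPM on control chow and 35.7, 78.2 and 0.911 CPM with PS-MP, so control replicate 3 was high as well. With edgeR none of these genes passed the threshold. Of the 12 pericentral, 12 periportal and 19 clock genes, 2 (Glul and Per2) had an unadjusted p under 0.05, near the 5.38% of all genes. Neither DESeq2 nor limma-voom called one.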
